A study of Homo sapiens with 6 samples.

Results

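Nodal, Cripto and Lefty signalling was examined in NTERA2/D1 cells through 10 genes: NODAL, TDGF1, LEFTY1, LEFTY2, CER1, GDF3, FOXH1, ACVR1B, ACVR2B and SMAD2. A probe set belonged to the pathway when the platform annotation named one of these genes, and 25 of the 54675 probe sets did. Of these, 23 named 1 gene. The remaining 2 were shared: the TDGF1 probe set also names its relative CRIPTO3 (the annotation lists TDGF1 under its current symbol, CRIPTO), and the LEFTY2 probe set names LEFTY1 as well. TDGF1 and LEFTY2 therefore have no reading of their own, and the other 8 genes are each represented among the 19775 genes measured by a single-gene probe set.

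NTERA2/D1 is an established human line of testicular teratocarcinoma whose cells resemble embryonal carcinoma. Cells were plated for 24 h and then transfected for 72 h, in 3 samples with a nonspecific scrambled siRNA and in 3 with siRNA against VAMP7, a vesicle SNARE. All 6 samples came from the same line and were transfected, and no untransfected sample was analysed here. Each sample was read on 1 array of 3' probe sets. The titles call the replicates biological and number them 1 to 3 in each group, but do not say what was separate between them (cultures or days). The p-values therefore reflect the spread among these 6 samples alone. In their descriptions, every knockdown sample is numbered 1, so the replicate numbers used here are those of the titles. Control means scrambled siRNA and knockdown means VAMP7 siRNA throughout.

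Nodal is a secreted ligand of the TGF-beta superfamily that acts through type I activin receptors such as ACVR1B and type II receptors such as ACVR2B, with the membrane-anchored co-receptor Cripto (TDGF1). The receptors phosphorylate SMAD2 and SMAD3, which enter the nucleus with SMAD4 and bind target genes together with the transcription factor FOXH1. NODAL itself and its secreted inhibitors LEFTY1, LEFTY2 and CER1 are classical targets, so the pathway feeds back on itself, and in human pluripotent cells it helps to keep NANOG expressed.

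The upstream sequences shown are those of the ligand NODAL and of the only 2 members whose main probe set did not overlap between the groups, CER1 and GDF3. Each is the RefSeq window of 250 bases before the gene's start in GRCh38.p14, on the gene's own strand, which is the minus strand for all 3. The positions are chr10:70441682-70441931 for NODAL, chr9:14722734-14722983 for CER1 and chr12:7695776-7696025 for GDF3. Capitals mark matches to the FOXH1 motif, searched as AATCCACA and AATACACA, and to the SMAD motif, searched as CAGAC, all on both strands.
NODAL: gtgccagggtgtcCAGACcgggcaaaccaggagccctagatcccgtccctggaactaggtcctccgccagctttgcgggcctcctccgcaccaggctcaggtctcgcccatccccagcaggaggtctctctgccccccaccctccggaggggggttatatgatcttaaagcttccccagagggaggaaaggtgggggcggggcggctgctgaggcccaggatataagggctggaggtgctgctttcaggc
CER1: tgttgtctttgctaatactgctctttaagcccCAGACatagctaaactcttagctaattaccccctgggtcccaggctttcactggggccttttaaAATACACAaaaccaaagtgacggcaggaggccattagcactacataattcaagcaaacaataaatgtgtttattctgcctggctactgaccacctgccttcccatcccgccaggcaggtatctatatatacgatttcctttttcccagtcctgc
GDF3: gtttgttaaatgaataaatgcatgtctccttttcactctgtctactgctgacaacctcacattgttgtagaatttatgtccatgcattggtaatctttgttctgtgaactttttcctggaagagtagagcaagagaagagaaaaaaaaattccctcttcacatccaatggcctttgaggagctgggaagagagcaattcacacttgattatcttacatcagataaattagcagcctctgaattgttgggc
The CER1 window holds the FOXH1 letters AATACACA, beginning 154 bases before the gene's start, and CAGAC at 218 bases. The motifs do not overlap. The NODAL window holds CAGAC at 237 bases, and the GDF3 window holds neither motif. Windows of 7 of the 10 genes were searched (10 windows, since some genes have several starts). No window was found for LEFTY1 and LEFTY2, and that of FOXH1 was left out of the search. The windows of all genes were not cut in this way. A FOXH1 match lay in 1 of the 10 windows and in 1.37% of the 35116 windows of all genes, and CAGAC lay in 3 of the 10 and in 38% of all. These matches describe letters in the sequence and not sites of binding.

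The targeted gene was checked first. VAMP7 read 2487, 2617 and 2741 intensity units on the control arrays and 136.8, 175.4 and 148.6 on the knockdown arrays. The knockdown mean was 5.87% of the control mean, with no overlap between the groups (log2 fold change -3.71, SE 0.11, adjusted p = 8.65e-05 in limma). Fold changes are differences of log2(intensity + 50), knockdown minus control, on which scale changes of dim probe sets are understated. The median intensity of an array ran from 58.85 to 67.54, and a probe set is called dim here where it read below that median. Knockdown replicate 1 had the lowest mean correlation with the other arrays, 0.984 against 0.986 to 0.987.

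No member passed the threshold of an adjusted p under 0.05 in limma, where 0.00506% of all genes passed, that is VAMP7 alone. The adjusted p of the 8 genes ran from 0.612 to 0.998. At an unadjusted p under 0.05 there were 2 of the 8, CER1 on the higher side and GDF3 on the lower side, against 6.66% of all genes. The same 2 genes were those whose groups did not overlap, which held for 13.0% of all genes. Fold changes lay above 0 for 4 of the 8 genes and below 0 for 4, with 50.8% of all genes above 0. Their median was 0.04 on the log2 scale, and the median over all genes was 0.003.

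**Figure D1:**
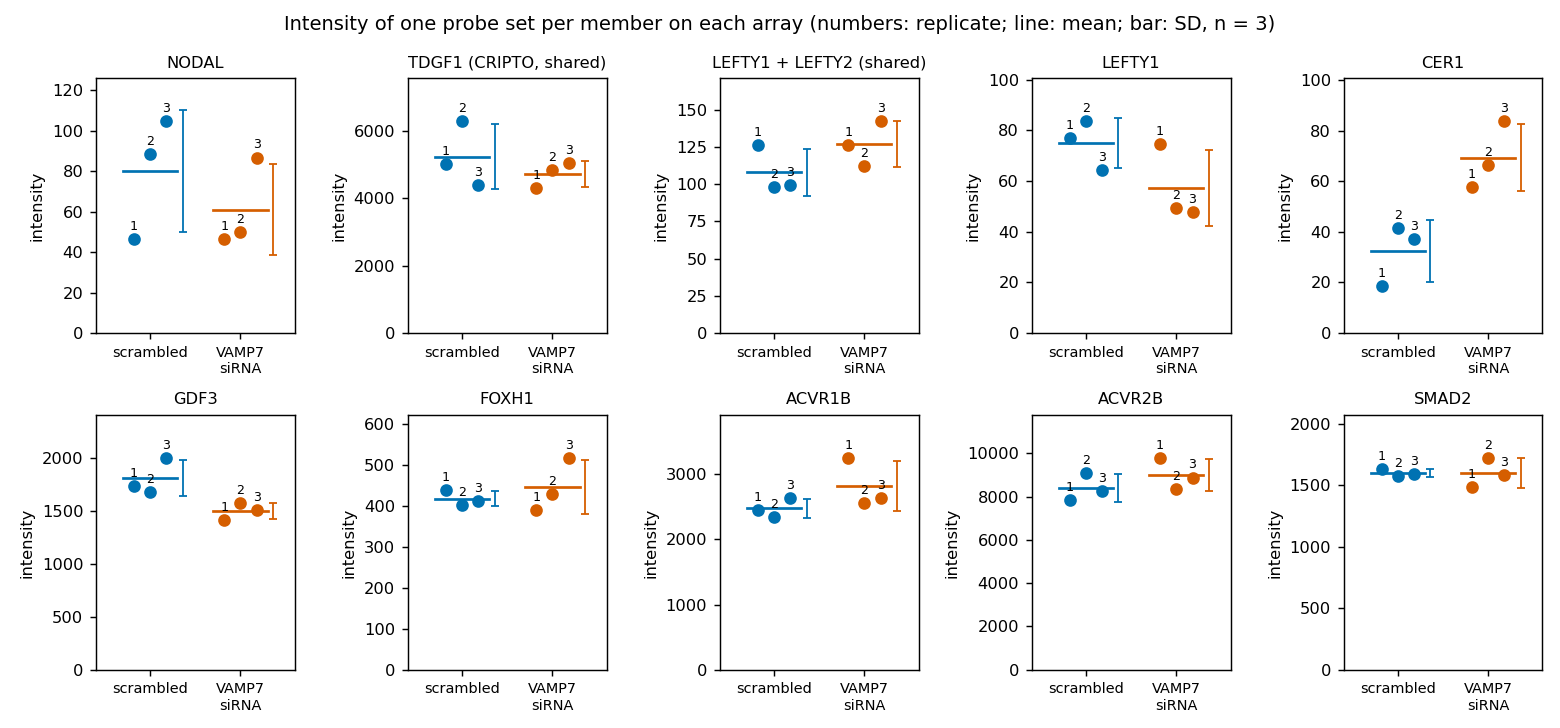
Intensity (linear axis from 0, own scale in each panel) of one probe set per member on the 3 scrambled and 3 VAMP7 siRNA arrays, with replicate numbers, the mean as a line and the SD as a bar. CER1 (18.5 to 41.46 against 57.8 to 83.95) and GDF3 (1684 to 2006 against 1418 to 1575) are the panels without overlap between the groups.

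Taken probe set by probe set, 15 of the 25 fold changes lay above 0 and 10 below, with a median of 0.06. In the fit over all 54613 probe sets none of the 25 passed (0.00183% of all passed), and the adjusted p ran from 0.654 to 0.998. At an unadjusted p under 0.05 there was 1, for CER1, against 6.62% of all probe sets. The groups did not overlap for 4 of the 25, against 12.4% of all. These were CER1, GDF3, a dim NODAL probe set and an ACVR2B probe set. On all 6 arrays 15 probe sets read above the array median and 6 below it.

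**Figure D2:**
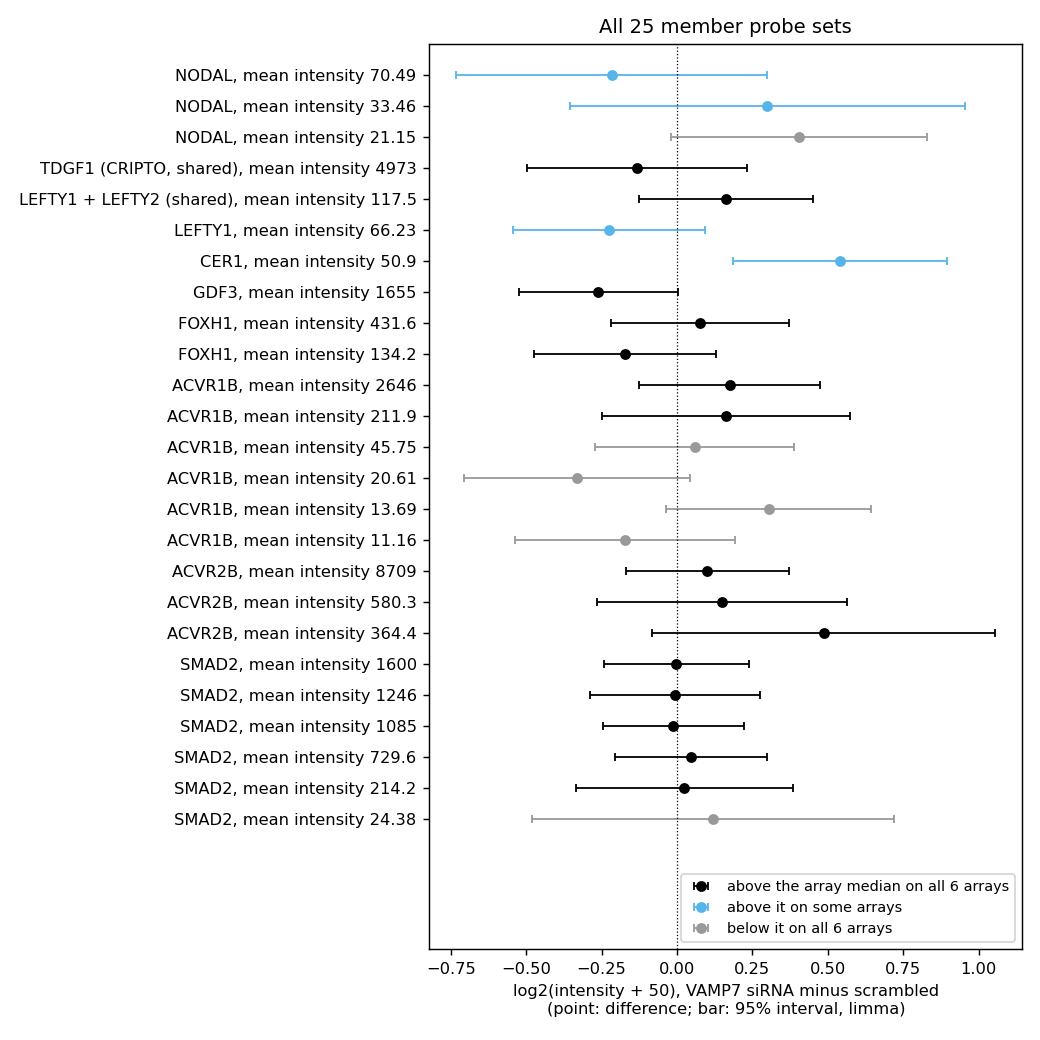
Log2 difference between VAMP7 siRNA and scrambled arrays of log2(intensity + 50) for each of the 25 member probe sets, with its 95% interval from limma (3 arrays per group) and its mean intensity. The interval of CER1, 0.19 to 0.90, is the one that lies wholly to one side of 0.

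Among the ligands, NODAL read near or below the array median. Its brightest probe set read 46.42, 88.51 and 104.9 in control and 46.36, 49.98 and 86.78 in knockdown. The groups overlapped, and control replicate 1 was as low as the lowest knockdown array. Limma gave a log2 fold change of -0.22 with an SE of 0.21 (95% interval -0.72 to 0.29, adjusted p = 0.875). With single arrays left out it ran from -0.42 without control replicate 1 to -0.08 without control replicate 3.

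The other NODAL probe sets had fold changes of the opposite sign. One read 8.095, 9.491 and 61.44 in control and 50.09, 22.24 and 49.39 in knockdown, a log2 fold change of 0.30 (SE 0.28). The dimmest read 20.55, 5.072 and 7.241 in control and 20.73, 21.57 and 51.72 in knockdown, a log2 fold change of 0.40 (SE 0.18, adjusted p = 0.765 in limma). All values of this dimmest probe set lay below the array median. Its groups were separated by 0.18 intensity units, between control replicate 1 and knockdown replicate 1. No direction for NODAL was shared by its 3 probe sets.

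GDF3, a ligand of the same superfamily that can signal through Cripto and activin receptors and is abundant in pluripotent cells, was read well above the array median. Its intensities were 1740, 1684 and 2006 in control and 1418, 1575 and 1506 in knockdown. All 3 knockdown arrays lay below all 3 control arrays, with a gap of 109 intensity units, and the knockdown mean of 1500 ± 78.5 was 82.9% of the control mean of 1810 ± 172 (SD, n = 3 each). The log2 fold change of -0.26 (SE 0.11, 95% interval -0.51 to -0.01) had an unadjusted p of 0.0434 and an adjusted p of 0.74 in limma. Control replicate 3 was the highest array, and without it the log2 fold change was -0.19 (unadjusted p = 0.134 in limma). Without knockdown replicate 1, the lowest array, it was -0.22 (unadjusted p = 0.0978 in limma). GDF3 had 1 probe set.

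The co-receptor gene TDGF1 was read strongly by the probe set it shares with CRIPTO3. This probe set read 5003, 6287 and 4385 in control and 4301, 4824 and 5037 in knockdown. The groups overlapped, and control replicate 2 stood highest. The knockdown mean was 90.3% of the control mean, a log2 fold change of -0.13 with an SE of 0.15 (limma, 95% interval -0.50 to 0.23, adjusted p = 0.907). It was 0.01 without control replicate 2, so its sign rested on that array. The signal of TDGF1 cannot be told apart from that of CRIPTO3.

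The receptors were read well above the array median by their brightest probe sets. ACVR1B, the type I activin receptor known as ALK4, read 2452, 2342 and 2635 in control and 3255, 2557 and 2635 in knockdown. Knockdown replicate 1 was the highest, and the other knockdown arrays lay within or at the edge of the control range. Limma put the log2 fold change at 0.18 with an SE of 0.12 (95% interval -0.11 to 0.46, adjusted p = 0.833), or at 0.07 without knockdown replicate 1.

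Of the other 5 ACVR1B probe sets, the next brightest read 152.3 to 249.5 in control and 192.9 to 263.6 in knockdown, a log2 fold change of 0.16 (SE 0.17). The remaining 4 read below the array median on all 6 arrays. Among these 4, 2 lay above 0 and 2 below, from -0.33 to 0.30. Their adjusted p ran from 0.772 to 0.963 in limma.

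ACVR2B, the type II activin receptor that also binds Nodal, had 3 probe sets, all with fold changes above 0 and all above the array median on 6 arrays. The brightest read 7843, 9118 and 8245 in control and 9811, 8350 and 8889 in knockdown. The groups overlapped, with a log2 fold change of 0.10 and an SE of 0.11 (limma, 95% interval -0.16 to 0.36, adjusted p = 0.885). Knockdown replicate 1 was the highest array, and without it the fold change was 0.04. The second read 480.4 to 610.9 in control and 509.1 to 784.4 in knockdown, a log2 fold change of 0.15 (SE 0.18).

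The third ACVR2B probe set read 372.8, 352.2 and 179.9 in control and 438.3, 374.5 and 468.4 in knockdown. Its groups did not overlap, but the nearest arrays were 1.7 intensity units apart and control replicate 3 stood well below the rest. Its log2 fold change of 0.49 had an SE of 0.24 (limma, 95% interval -0.08 to 1.06, adjusted p = 0.78).

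SMAD2, the signal transducer that the activated receptors phosphorylate, had the smallest fold change of the member genes. Its brightest probe set read 1634, 1576 and 1591 in control and 1488, 1727 and 1585 in knockdown. The knockdown values lay on both sides of the control values, and the means were 1601 ± 30.1 and 1600 ± 120 (SD, n = 3 each). Limma gave a log2 fold change of -0.003 with an SE of 0.10 (adjusted p = 0.998). On the scale with the offset of 50, its 95% interval ran from 85.3% to 117% of control, so differences within that range are compatible with these values.

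The other 5 SMAD2 probe sets had fold changes between -0.01 and 0.12 on the log2 scale. Of the 6 SMAD2 probe sets, 3 lay above 0 and 3 below, and the groups overlapped in each. The dimmest, with readings of 2.012 to 46.22, had the largest of these fold changes and a standard error of 0.25. Phosphorylation, through which SMAD2 acts, is not measured by these arrays.

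FOXH1, the DNA-binding partner of SMAD2 in the nucleus, had 2 probe sets of opposite sign. The brighter read 439.3, 403 and 411.3 in control and 389.1, 429 and 518.2 in knockdown, a log2 fold change of 0.08 (SE 0.12, 95% interval -0.21 to 0.36, adjusted p = 0.927 in limma). Knockdown replicate 3 was the highest array, and without it the fold change was -0.03. The second read 164.8, 116.7 and 155.4 in control and 128.5, 113.9 and 125.8 in knockdown, a log2 fold change of -0.17 (SE 0.13, adjusted p = 0.859 in limma). The groups overlapped in both.

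The secreted inhibitors, like NODAL, were read near the array median. CER1, the human Cerberus homologue, which binds Nodal outside the cell, had the largest fold change among the member genes. It read 18.5, 41.46 and 37.11 in control and 57.8, 66.54 and 83.95 in knockdown. All 3 control arrays were below their array median, as was knockdown replicate 1, while knockdown replicates 2 and 3 were above theirs. The groups were 16.3 intensity units apart.

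The knockdown mean of CER1, 69.43 ± 13.3, was 215% of the control mean of 32.36 ± 12.2 (SD, n = 3 each). The log2 fold change of 0.54 (SE 0.15, 95% interval 0.20 to 0.89) had an unadjusted p of 0.00751 and an adjusted p of 0.612 in limma, and did not pass. With single arrays left out it ran from 0.41 without control replicate 1 to 0.62 without control replicate 2. It was 0.61 without knockdown replicate 1. Since the groups do not overlap, leaving out an array could change the size of this fold change but not its sign. Because the signal is dim, its size depended on the offset: it was 0.36 at an offset of 100 and 1.14 at an offset of 1. Among the 7 members with a searched window, CER1 is the one whose window, printed above, holds the FOXH1 letters. Any link between these letters and the CER1 reading was not tested.

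CER1 is also a marker of anterior endoderm, so endoderm and yolk sac genes were read beside it. Of 8 such genes (AFP, GATA6, GATA4, SOX17, FOXA2, APOA1, TTR and SOX7), 4 lay above 0 and 4 below, and none passed. GATA4, an endoderm transcription factor, was named after its values had been seen. It was the 1 gene of the 8 with an unadjusted p under 0.05 (0.0348 in limma, adjusted p = 0.728) and without overlap. Over all genes, 6.66% had such an unadjusted p and 13.0% had groups without overlap. GATA4 read 34.6, 52.34 and 42.44 in control and 23.59, 32.58 and 9.934 in knockdown, all below the array median, the opposite direction to CER1. Their summed intensity was 444.5 to 539 in control and 368.2 to 582.5 in knockdown, and the ranges overlapped. On all 6 arrays 5 of the 8 read below the array median, among them AFP, SOX17 and FOXA2.

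LEFTY1, an inhibitor that binds Nodal and its co-receptors, was read alone by 1 probe set. It read 77.15, 83.74 and 64.25 in control and 74.73, 49.53 and 47.95 in knockdown. Knockdown replicates 2 and 3 were the lowest arrays, while knockdown replicate 1 lay inside the control range. Limma gave -0.23 as the log2 fold change, with an SE of 0.13 (95% interval -0.53 to 0.08, adjusted p = 0.803). Without knockdown replicate 1 it was -0.34 (unadjusted p = 0.0208, adjusted p = 0.704 in limma).

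The probe set that names LEFTY1 and its neighbouring, closely related gene LEFTY2 lay on the other side of 0. It read 126.5, 98.15 and 99.69 in control and 126.2, 112 and 142.6 in knockdown, above the array median on all arrays. The groups overlapped, with a log2 fold change of 0.16 and an SE of 0.12 (limma, 95% interval -0.13 to 0.45, adjusted p = 0.862). Since it may read either transcript, no value for LEFTY2 alone can be given.

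**Figure D3:**
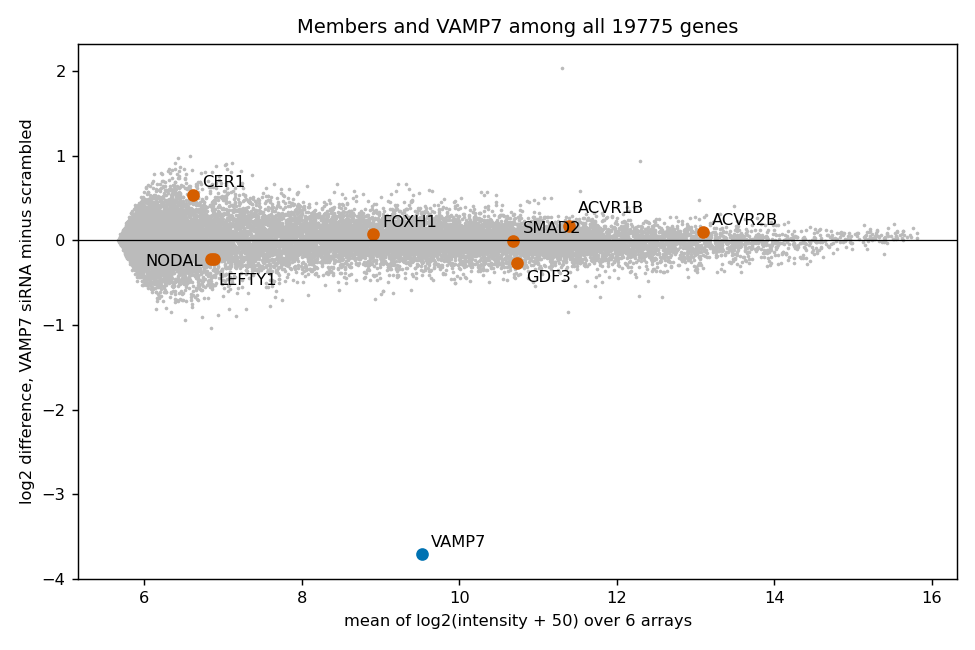
Log2 difference between VAMP7 siRNA and scrambled arrays against the mean of log2(intensity + 50) over 6 arrays, with 1 grey point for each of 19775 genes, the 8 member genes in orange and VAMP7 in blue. The members lie within the cloud, CER1 (0.54) near its upper edge among dim genes and GDF3 (-0.26) toward its lower side, while VAMP7 (-3.71) lies apart.

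Over arrays, knockdown replicate 1 was often at an extreme, among the members as among all probe sets. It was the highest array for 7 and the lowest for 6 of all 25 member probe sets. Of the 15 that read above the array median throughout, it was the highest for 7 and the lowest for 5. It was thus at an extreme for 12 of the 15, which are not independent, since 5 are of SMAD2 and 3 of ACVR2B. Over all 23553 such probe sets it was at an extreme for 50.6%, against 23.5% to 34.1% for each of the other arrays. Without it the log2 fold changes were -0.12 for NODAL, -0.07 for the TDGF1 probe set, 0.04 for ACVR2B, 0.05 for SMAD2, 0.16 for FOXH1 and 0.16 for the probe set of LEFTY1 and LEFTY2. Those of GDF3, ACVR1B, CER1 and LEFTY1 without it stand with each gene.

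The rest of the pathway was described through 5 lists of genes grouped by role, of which 54 of 62 genes had a probe set of their own. None of the 54 passed in either direction in limma, and 2 had an unadjusted p under 0.05, PMEPA1 and NANOG, both below 0. The groups did not overlap for 5 of the 54: TGFBR1, SMAD5, SMURF2 and NANOG on the lower side and SMAD7 on the higher side. Of the fold changes 24 lay above 0 and 30 below, with a median of -0.01. These shares are to be read against the 6.66% and 13.0% of all genes given above.

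Among ligands and the enzymes that process them, 5 of 8 genes lay above 0 and 0 of 8 passed, with a median of 0.06. GDF11, a ligand that shares the activin receptors, read 492.3, 608.7 and 479.9 in control and 541.6, 769 and 671.6 in knockdown, a log2 fold change of 0.30 (adjusted p = 0.786 in limma). Its other 4 probe sets, of mean intensity 483.7, 326.5, 110 and 12.26, gave -0.03, 0.07, 0.32 and -0.19. INHBA, the activin A subunit, read 12.6 to 33.4 in control and 27.11 to 67.23 in knockdown, below the array median on every array, with a log2 fold change of 0.32 (adjusted p = 0.803 in limma). It was 0.15 without knockdown replicate 1, its highest array, and 0.20 without control replicate 3, its lowest. The other INHBA probe sets, of mean intensity 20.82 and 3.465, gave 0.21 and -0.005.

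Of 9 receptors and co-receptors, 2 lay above 0 and 7 below, with a median of -0.02 and 0 of 9 passing. TGFBR1, the type I TGF-beta receptor, read 8035, 7787 and 8458 in control and 6582, 7434 and 7040 in knockdown. All knockdown arrays lay below all control arrays, and the log2 fold change was -0.21 (SE 0.10, adjusted p = 0.759 in limma). Without knockdown replicate 1, the lowest array, it was -0.16. Its other probe sets, of mean intensity 88.59 and 56.22, gave 0.02 and -0.13. TGFBR3, a TGF-beta co-receptor, was at -0.07 (adjusted p = 0.906 in limma), and its other probe set, of mean intensity 1092, gave 0.06. ACVR2A, the other type II activin receptor, was at 0.04, and the Cripto relative CFC1 read 2.504 to 23.69, below the array median on every array. These 2 genes were named after their values had been seen.

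Of 9 other extracellular and membrane inhibitors, 5 lay above 0 and 4 below, with 0 of 9 passing. LTBP3 and LTBP1, which hold TGF-beta in its latent form, had the smallest p of the list, with log2 fold changes of 0.21 and 0.09 (adjusted p = 0.858 and 0.875 in limma). That of LTBP3 ran from 0.08 without knockdown replicate 2 to 0.37 without knockdown replicate 1 (unadjusted p = 0.047 in limma). The other LTBP3 probe sets, of mean intensity 256.4 and 75.28, gave 0.12 and -0.03. A second LTBP1 probe set, of mean intensity 424.4, gave -0.09.

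Of 18 SMADs and cofactors, 8 lay above 0 and 10 below, and 0 of 18 passed. All 18 read above the array median on every array. SMAD5, a transducer of BMP signals, read 4035, 3807 and 3750 in control and 3027, 3555 and 3272 in knockdown, without overlap (log2 fold change -0.23, SE 0.10, adjusted p = 0.745 in limma). Without knockdown replicate 1, the lowest array, the fold change was -0.18. Its other 4 probe sets, of mean intensity 3114, 474.6, 122.8 and 97.87, gave -0.08, -0.02, -0.17 and 0.38, and the mean of all 5 gave -0.03. SMURF2, a ubiquitin ligase that acts on SMADs and receptors, read 1409, 1235 and 1360 in control and 820.3, 1141 and 1204 in knockdown, a log2 fold change of -0.34 (SE 0.16, adjusted p = 0.754 in limma). It was -0.18 without knockdown replicate 1, the lowest array. Its other probe sets, of mean intensity 981.2, 183.9 and 155.1, gave -0.14, -0.45 and 0.04. SMAD7, the inhibitory SMAD, named after its values had been seen, read 769.4, 742.2 and 794.7 in control and 839.4, 804.2 and 904 in knockdown.

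Of 10 measured genes listed here as SMAD2 and SMAD3 targets, ID1 among them, 4 lay above 0 and 6 below. The median was -0.08, and 0 of 10 passed. NANOG, a pluripotency factor, read 5151, 4314 and 5053 in control and 3629, 4283 and 3993 in knockdown, so its knockdown mean was 82% of control. The highest knockdown array came close to the lowest control array without reaching it. The log2 fold change was -0.28 (SE 0.12, unadjusted p = 0.0443, adjusted p = 0.742 in limma). With single arrays left out, it was farthest from 0 without control replicate 2, at -0.36 (unadjusted p = 0.0226 in limma). It was nearest 0 without knockdown replicate 1, the lowest array, at -0.22 (unadjusted p = 0.112 in limma). Its second probe set, of mean intensity 343.7, gave -0.20.

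PMEPA1, a feedback inhibitor of TGF-beta family signals, read 367.6, 360.1 and 308.1 in control and 225, 313.3 and 262.3 in knockdown, a log2 fold change of -0.33 (SE 0.13, unadjusted p = 0.0434, adjusted p = 0.74 in limma). It was -0.23 without knockdown replicate 1, the lowest array, and -0.02 when the probe sets were averaged. Its other probe sets, of mean intensity 216.2 and 126.3, gave 0.20 and 0.07, so the direction was not shared. The mesendoderm targets MIXL1, GSC, LHX1 and FOXA2, named after their values had been seen, read below the array median on all 6 arrays. Others of the list did not: EOMES read above it on all 6 arrays and TBXT on 4.

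**Figure D4:**
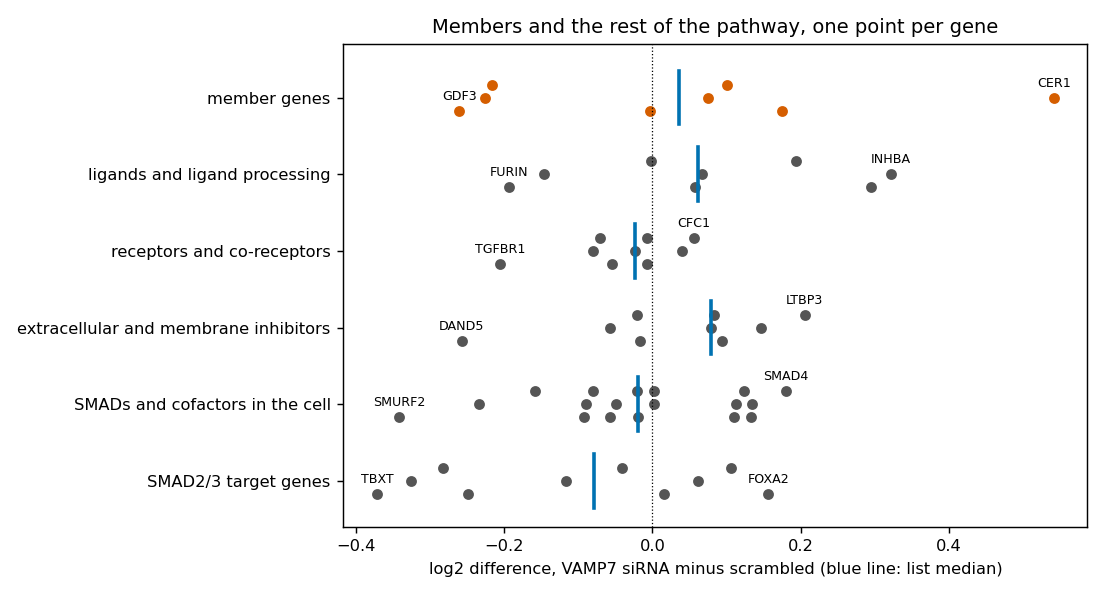
Log2 difference between VAMP7 siRNA and scrambled arrays for the 8 member genes and for each gene of 5 pathway lists (1 point per gene, vertical spread for legibility, blue line at the list median), with the outermost genes of each row named. List medians run from -0.08 for the target genes to 0.08 for the extracellular inhibitors, and CER1 at 0.54 lies farthest from 0.

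Markers of the cell type were read alongside. Of 13 measured markers of pluripotent embryonal carcinoma cells, 12 read above the array median on all 6 arrays, ZFP42 being the exception, and POU5F1 had no probe set of its own. Their summed intensity was 89870 to 110900 in control and 97230 to 113400 in knockdown. No marker passed in the neural, mesoderm, trophoblast or fibroblast lists either, and the summed intensity of each overlapped between the groups. These lists held 6, 6, 6 and 8 measured genes. At an unadjusted p under 0.05 in limma were TBX6 (mesoderm) and INSL4 (trophoblast), both higher, and PDGFRA (fibroblast), lower. PDGFRA read 54.6% of control (unadjusted p = 0.00195, adjusted p = 0.494 in limma). The groups did not overlap for TBX6, PDGFRA and LUM (fibroblast, lower). These markers were named after their values had been seen. Over all genes, 6.66% had such a p and 13.0% had no overlap. In bulk samples, fewer cells of a type and less RNA per cell cannot be told apart.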

How the data were processed

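Gene expression was measured on 6 arrays, 3 per group, grouped by the sample titles. Per the value table, the authors deposited linear-scale intensities, 1 for each probe set. They had been scaled before deposit, since each array's trimmed mean, leaving out 2% at each end, was 500.1. The submitters' processing notes name RMA, which does not describe these linear values. For other steps the sources used here give no record. Here 50 was added and log2 taken. The 62 array controls were left out. Symbols came from the platform annotation, updated through gene identifiers to RefSeq (GRCh38.p14). The probe set of highest mean, among those naming 1 gene, stood for each of 19775 genes, without a filter.

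Groups were compared in limma 3.58.1 (R 4.3.3; lmFit and eBayes) with Benjamini-Hochberg adjustment, over 19775 genes for values given by gene and over 54613 probe sets for second and shared probe sets. The code was tested on simulated data. An exact permutation test of 3 against 3 cannot give p below 0.1. The members, the pathway lists and the marker lists were chosen with earlier results of these data known. Named were VAMP7, all members, any list gene that passed and the 2 genes of smallest p in each pathway list.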

Additional observations from a re-analysis of the deposited data

How the results depend on the processing

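The fit was repeated under 19 alternatives, and no member passed in any that gave it a value. The VAMP7 log2 fold change stayed past the threshold, between -4.09 (offset 1) and -3.42 (offset 100). Among the brightest 30% of features VAMP7 had no value, because its mean over both groups fell below that limit, and 0 genes passed there in limma (551 at an unadjusted p under 0.05). Otherwise 1 gene passed, except for 2 when probe sets of a gene were averaged, 2 at offset 16 and 6 at offset 1. Of probe sets, 1 passed, or 3 at offset 1. Member genes at an unadjusted p under 0.05 numbered 2. The count was 1 at offsets of 16 and 1 and with the replicate block (CER1 in each), and 1 among features at or above the median and among the brightest 30% (GDF3 in each, CER1 being too dim to enter). It ran from 1 to 2 with single arrays left out, and with array weights it was 3. CER1, GDF3, LEFTY1, ACVR1B and ACVR2B kept their sign wherever they had a value. For CER1 and GDF3 most settings could not have turned it. Their groups do not overlap and each has 1 probe set, so leaving out an array, averaging or another offset keeps the sign. NODAL turned to 0.162 when its probe sets were averaged and to 0.30 with the second brightest alone. FOXH1 turned to -0.0485 and -0.172 under these settings. SMAD2 turned to 0.0283 on averaging and to 0.0123 with array weights. With single arrays left out, SMAD2 ran from -0.0574 to 0.0468, FOXH1 from -0.028 to 0.158, and the probe set of TDGF1 and CRIPTO3 from -0.249 to 0.0081. The cause of these turns was not tested, beyond the opposite probe sets described above. Equal replicate numbers, taken from the titles, showed no shared variation (correlations of their deviations from the group means -0.0055, 0.0134 and -0.0141). Not every sample correlated best with its own number. Whether equal numbers shared a culture or day cannot be told from these correlations. Median centring moved the median of all genes from 0.003 to -0.04. The other pathway genes named by the rule kept their sign under every alternative that gave a value. The second brightest probe set was tried for member genes only, so that setting did not reach them. Each of them but NANOG had another probe set of opposite sign. For TGFBR1, SMAD5, SMURF2 and NANOG, whose groups did not overlap, neither leaving out an array nor another offset could turn the sign.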
